A study of Mus musculus with 3 samples.

Results

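Basement membranes are thin sheets of matrix that underlie endothelium and epithelium and wrap muscle fibers, fat cells and Schwann cells. Laminin trimers and a network of type IV collagen are the main layers of the sheet, nidogens and the heparan sulfate proteoglycan perlecan link them, and collagens XV and XVIII sit at the border with the tissue around. In the mandibular condyle they belong mainly to vessels, marrow, nerve and attached muscle, and some of these proteins also surround chondrocytes. The 10 genes described here are Col4a1, Col4a2, Col15a1, Col18a1, Lama2, Lama4, Lamb1, Lamc1, Nid1 and Hspg2, taken by symbol from the 26970 genes of the deposited table, where each was found once.

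RNA of whole mandibular condyles, with the cartilage and the bone under it still joined, was sequenced from mice aged 4 months of the genotypes +/+ (WT), Dspp+/- and Dspp-/-. Dspp, the gene of dentin sialophosphoprotein, is deleted in every cell of the Dspp-/- mice, on the C57BL/6 background, and the Dspp+/- mice came from crossing these with C57BL/6 WT mice. The study states that 3 animals were pooled for WT and for Dspp+/-, and the number behind Dspp-/- is not given in the sources used here. The labels also speak of triplicates, but the table holds 1 value per gene and genotype. Each genotype was therefore taken as 1 library, so no spread between animals could be estimated, no test between genotypes was possible, and every difference given here is between single libraries.

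The values are FPKM (fragments scaled to gene length and library size). Their unit was read from the values, which were whole fragments over gene length for 98.2% of the genes with a known length in all 3 libraries, at depths of 20241576 to 23613621 fragments. The 10 genes had between 627 and 17187 fragments per library. The range in parentheses after a fold or a ratio of levels is its 95% Clopper-Pearson interval, which comes from these fragments and covers counting error only. Mitochondrially encoded genes held 9.60% of the fragments in WT, against 16.6% in Dspp+/- and 16.2% in Dspp-/-. Xist, the RNA of the inactive X chromosome of female cells, had 0.00551 FPKM in WT, against 28.5 in Dspp+/- and 26.5 in Dspp-/-, so the sex of the pooled animals and the genotype cannot be told apart. Dspp itself was not analysed here. Cartilage and bone markers were present in the WT library, with 761 FPKM of Col2a1 and 6675 of Col1a1, and Matn1 was near 0 in all libraries.

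The sequences at the starts of a few of these genes are shown because the collagen genes were lower together in both mutant libraries while Nid1 was not. They come from RefSeq on GRCm38.p6, where 8 of the 10 genes matched, with 9 start sites. Gene positions given further on are those of the deposited table and are not on these coordinates. Col4a1 and Col4a2 lie head to head, and their transcripts start 22 bases into each other. The 30 bases around both starts, at chr8:11312801-11312830 on the plus strand, have the 22 shared bases in capitals.
Col4a1 and Col4a2: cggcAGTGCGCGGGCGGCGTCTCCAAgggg
Col18a1 has 2 annotated starts that are 52825 bases apart, and a single value per gene does not separate them. The stretch before its upstream start, at chr10:77166549-77166780 on the minus strand, holds 3 GC boxes (GGGCGG or CCGCCC on the strand shown) and 1 CCAAT box (CCAAT or ATTGG), which are in capitals here and in the next sequences, and it ends where an annotated exon begins. The window before the other start holds neither motif.
Col18a1: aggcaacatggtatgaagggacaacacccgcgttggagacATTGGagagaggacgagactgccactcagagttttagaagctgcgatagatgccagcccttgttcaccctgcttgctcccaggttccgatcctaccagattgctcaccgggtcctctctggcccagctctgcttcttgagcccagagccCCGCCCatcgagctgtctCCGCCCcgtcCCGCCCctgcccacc
The 250 bases before the start of Col15a1, at chr4:47207762-47208011 on the plus strand, hold neither motif.
Col15a1: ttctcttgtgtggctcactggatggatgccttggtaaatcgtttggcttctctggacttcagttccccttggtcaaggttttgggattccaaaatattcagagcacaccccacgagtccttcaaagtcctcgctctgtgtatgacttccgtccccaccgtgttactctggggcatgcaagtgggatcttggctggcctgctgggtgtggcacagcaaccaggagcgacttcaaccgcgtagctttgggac
The stretch before Nid1, at chr13:13437352-13437550 on the plus strand, holds 1 GC box and 1 CCAAT box.
Nid1: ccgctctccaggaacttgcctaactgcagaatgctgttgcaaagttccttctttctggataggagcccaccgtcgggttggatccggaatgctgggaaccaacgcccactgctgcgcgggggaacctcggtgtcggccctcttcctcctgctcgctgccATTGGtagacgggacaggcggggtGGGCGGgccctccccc
On either strand, a GC box was found in 32.7% and a CCAAT box in 33.8% of the 32851 RefSeq windows of 250 bases before a start, and the TATA box (TATAAA) in 12.4% of them and before none of the 9 starts. Of the windows not printed, that of Lama2, which was also not lower, has no GC or CCAAT box, and that of Hspg2 has 5 GC boxes. Those of Col4a2 and Lamb1 each have 2 GC boxes and 1 CCAAT box, and that of Col4a1 has 1 CCAAT box. The 22 bases shared by Col4a1 and Col4a2 lie outside both windows, and they hold the letters GGGCGG of a GC box. All these matches are letters in a sequence and no more, and a link between them and the levels was not tested.

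Most of the 10 genes had less RNA in both mutant libraries than in WT, and the collagens and perlecan differed most. The summed FPKM of the 10 genes was 270.0 in WT, against 189.9 in Dspp+/- and 204.4 in Dspp-/-. Expressed as a log2 ratio of FPKM + 1 to WT, their median was -0.42 in Dspp+/- and -0.32 in Dspp-/-, beside 0.058 and 0.0070 over the 13026 genes whose mean FPKM was at least 1. In bulk tissue, fewer cells that make a gene's RNA and less of that RNA per cell cannot be told apart. Both comparisons use the same WT library.

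No gene of the 10 was 2-fold apart from WT on the scale of FPKM + 1, where 4.88% of all compared genes were at least 2-fold higher and 2.86% at least 2-fold lower in Dspp+/-, and 4.05% and 1.37% in Dspp-/-. At 1.5-fold, 3 of the 10 were lower in Dspp+/- (Col4a2, Col15a1 and Col18a1), against 8.95% of all genes, and none was higher, against 11.5%. In Dspp-/-, 3 of the 10 were lower by that measure (Col4a1, Col4a2 and Col18a1), against 8.21%, and none was higher, against 8.84%. By counting error alone, the interval of the fold lay below 1 for 8 genes and above 1 for 2 in Dspp+/-, while 28.4% and 39.4% of the 12983 genes with fragments did so. In Dspp-/- it lay below 1 for 6 genes and above 1 for 3, beside 33.6% and 34.1%, and the interval of Lamb1 held 1. These intervals are narrow because the genes have many fragments, and a difference beyond them may still be within the spread between animals, which was not measured.

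**Figure D1:**
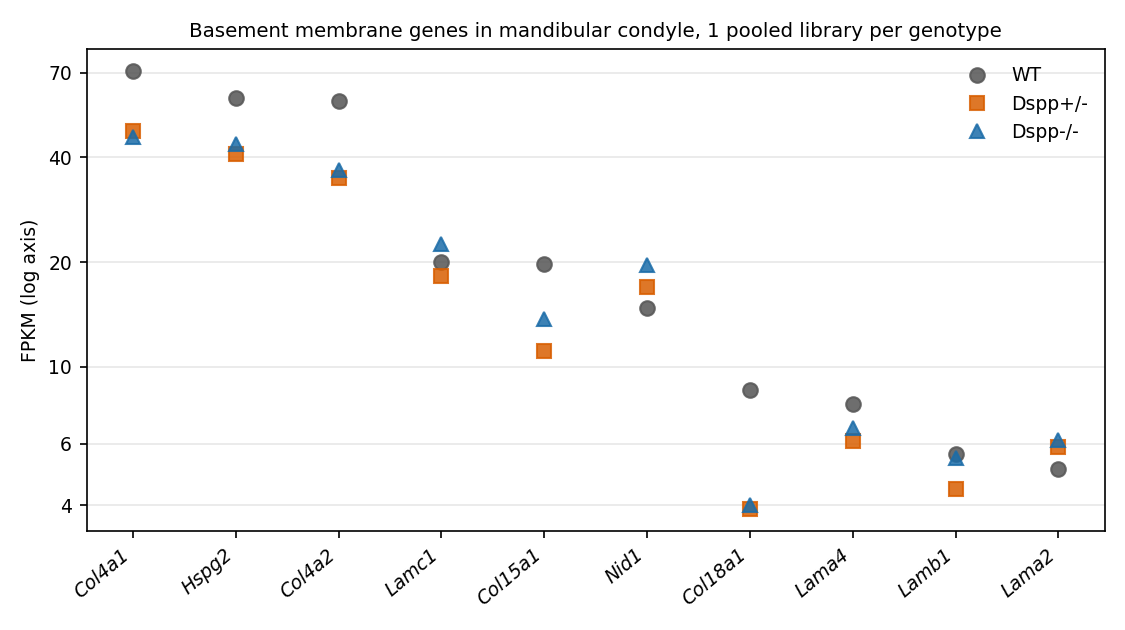
FPKM (log axis) of the 10 genes in the WT, Dspp+/- and Dspp-/- libraries, 1 point per library, ordered by the WT value. The WT point is above both mutant points for the 4 collagen genes, for Hspg2, Lama4 and Lamb1, between them for Lamc1, and below both for Nid1 and Lama2.

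In WT the order of levels per length was Col4a1, Hspg2, Col4a2, Lamc1, Col15a1, Nid1, Col18a1, Lama4, Lamb1 and Lama2, from 70.8 down to 5.08 FPKM. Hspg2 and Col4a2 did not differ beyond counting error in WT, with a ratio of 1.02 (interval 0.993–1.05), and neither did Lamc1 and Col15a1, with a ratio of 1.01 (0.961–1.07). The first 4 genes were the same in all 3 libraries. Col18a1 was at rank 7 in WT and at rank 10, the last, in both mutant libraries, and Col15a1 was at rank 5 in WT and at rank 6, behind Nid1, in both others. In Dspp+/-, Lama4 and Lama2 could not be ordered, with a ratio of 1.04 (0.977–1.11).

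Type IV collagen forms the network of the sheet, and its common trimer holds chains of Col4a1 and Col4a2. Col4a1 (chromosome 8, 11248423 to 11362826 in the deposited table) had 70.8 FPKM in WT, against 47.6 in Dspp+/- and 45.8 in Dspp-/-. Col4a2 (chromosome 8, 11362805 to 11499287) had 58.2 FPKM in WT, against 34.9 in Dspp+/- and 36.7 in Dspp-/-. Both chains were highest in WT, and their mutant values were close together. The fold of Col4a1 against WT was 0.672 (0.653–0.691) in Dspp+/- and 0.647 (0.628–0.666) in Dspp-/-. The fold of Col4a2 was 0.600 (0.579–0.621) in Dspp+/- and 0.630 (0.609–0.653) in Dspp-/-.

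The proportion of the head-to-head pair was similar in WT and Dspp-/- and higher in Dspp+/-. The ratio of Col4a1 to Col4a2 was 1.22 (1.18–1.25) in WT, against 1.36 (1.32–1.41) in Dspp+/- and 1.25 (1.20–1.29) in Dspp-/-. The Dspp+/- ratio was above the others beyond counting error, and the WT and Dspp-/- intervals overlap. The other type IV chains, Col4a3 to Col4a6, were scarce, so the pair made up 98.9% of the FPKM of type IV collagen in WT, against 98.4% in Dspp+/- and 98.7% in Dspp-/-. Col4a5, the most abundant of the others, had 1.13 FPKM in WT, against 0.933 in Dspp+/- and 0.622 in Dspp-/-. Col4a3, Col4a4 and Col4a6 lay between 0.0929 and 0.199 FPKM in the 3 libraries.

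Collagens XV and XVIII carry chains of heparan or chondroitin sulfate and end in a domain whose cleaved form from collagen XVIII is endostatin, an inhibitor of vessel growth. Col18a1 (chromosome 10, 76888012 to 77002382) had 8.56 FPKM in WT, against 3.91 in Dspp+/- and 4.01 in Dspp-/-. It had the lowest fold of the 10 genes in both mutant libraries, 0.456 (0.414–0.502) in Dspp+/- and 0.469 (0.425–0.516) in Dspp-/-. On the log2 scale of FPKM + 1 these are -0.96 and -0.93, just short of 2-fold. Among all compared genes, 3.11% had a lower log2 ratio in Dspp+/- and 1.77% in Dspp-/-.

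Col15a1 (chromosome 4, 47208161 to 47313167) had 19.8 FPKM in WT, against 11.1 in Dspp+/- and 13.7 in Dspp-/-. Its fold was 0.562 (0.528–0.598) in Dspp+/- and 0.694 (0.654–0.736) in Dspp-/-. Unlike Col18a1, it differed between the mutant libraries beyond counting error, with 1.23 (1.15–1.32) times as much in Dspp-/- as in Dspp+/-. The ratio of Col15a1 to Col18a1 was 2.31 (2.16–2.48) in WT, against 2.85 (2.60–3.12) in Dspp+/- and 3.42 (3.13–3.75) in Dspp-/-, so the proportion of the pair was different in every library.

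Perlecan, the product of Hspg2, is a large proteoglycan of vessel basement membranes and is also laid down around chondrocytes. Hspg2 (chromosome 4, 137196080 to 137297941) had 59.3 FPKM in WT, against 40.8 in Dspp+/- and 43.7 in Dspp-/-. The fold was 0.687 (0.672–0.702) in Dspp+/- and 0.737 (0.721–0.754) in Dspp-/-. It was close to that of Col4a1 in Dspp+/-, and in Dspp-/- it was nearer to WT than that of Col4a1 or Col4a2. Agrn, the gene of the basement membrane proteoglycan agrin, had 9.30, 6.82 and 7.51 FPKM in the same order. Perlecan RNA was thus 6.38 times agrin RNA per length in WT (6.08–6.71), 5.97 times in Dspp+/- (5.66–6.31) and 5.82 times in Dspp-/- (5.52–6.14).

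**Figure D2:**
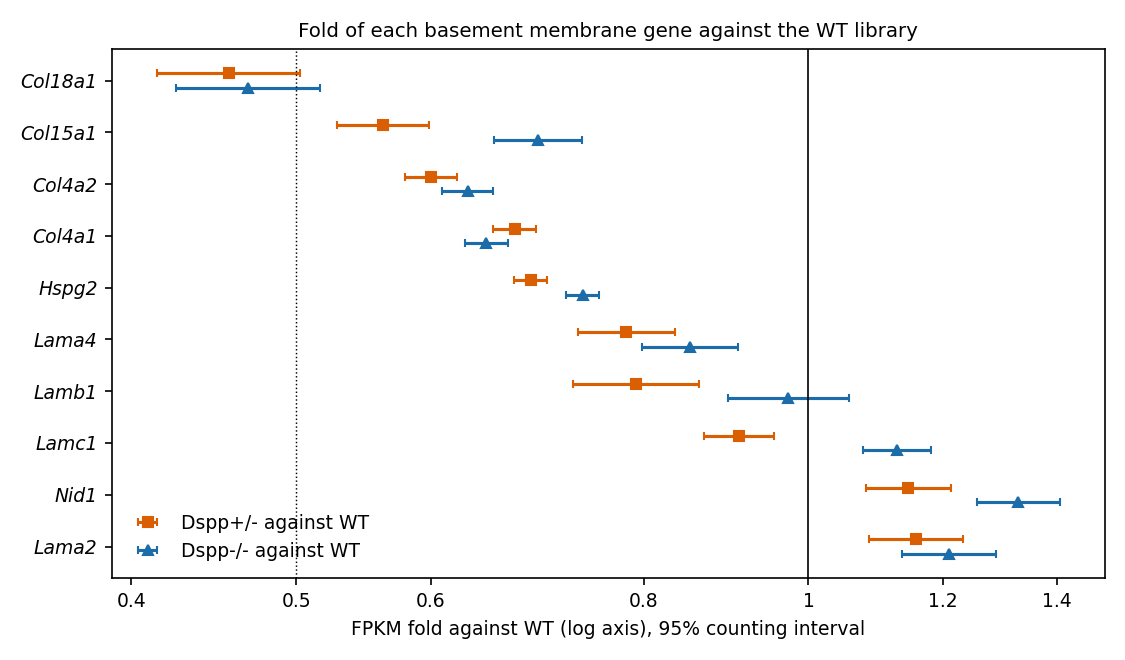
FPKM fold against WT (log axis) of each of the 10 genes in Dspp+/- (squares) and Dspp-/- (triangles), with bars for the 95% counting interval, a solid line at 1 and a dotted line at 0.5. Folds run from 0.456 for Col18a1 to 1.16 for Lama2 in Dspp+/- and from 0.469 for Col18a1 to 1.33 for Nid1 in Dspp-/-, and only Lamc1 has intervals on opposite sides of 1.

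The laminin genes differed less from WT than the collagen genes, and not all in the same direction. Their median log2 ratio of FPKM + 1 was -0.20 in Dspp+/- and 0.066 in Dspp-/-, beside -0.75 and -0.63 for the 4 collagen genes. A laminin has 1 alpha, 1 beta and 1 gamma chain, and the alpha chain sets which receptors it binds. Lama2, the alpha chain of muscle and Schwann cell laminin, lies on chromosome 10 from 26856032 to 27495754 and had 5.08 FPKM in WT, against 5.88 in Dspp+/- and 6.15 in Dspp-/-. Lama2 was lowest in WT, with folds of 1.16 (1.09–1.23) and 1.21 (1.13–1.29). An RNA gene on the other strand covers 3.86% of its exon length, and the counting is not stated to use strand.

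Lama4, the alpha chain of endothelial and fat cell laminin, lies on chromosome 10 from 38841511 to 38986184. It had 7.83 FPKM in WT, against 6.12 in Dspp+/- and 6.67 in Dspp-/-. Lama4 was lower in both mutant libraries, with folds of 0.781 (0.732–0.834) and 0.852 (0.798–0.909). The ratio of Lama2 to Lama4 was 0.649 (0.608–0.694) in WT, against 0.961 (0.903–1.02) in Dspp+/- and 0.922 (0.866–0.982) in Dspp-/-, so the share of Lama2 was larger in both mutant libraries. Lama5, the other alpha chain of vessels, had 5.27, 5.29 and 5.11 FPKM and did not differ from WT beyond counting error in either library. Of the chains of epithelial laminins, Lama3 had 1.11, 0.745 and 0.611 FPKM in the same order, and Lama1 had 0.189, 0.0875 and 0.0789.

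Lamb1 is a beta chain found in many laminins. Lamb1 (chromosome 12, 31315233 to 31379643) had 5.62 FPKM in WT, against 4.45 in Dspp+/- and 5.47 in Dspp-/-. Its fold was 0.792 (0.727–0.862) in Dspp+/-, and in Dspp-/- it was 0.973 (0.897–1.06), an interval that holds 1. When the libraries were scaled without mitochondrially encoded genes, the log2 ratio of FPKM + 1 in Dspp-/- was 0.059 instead of -0.033. The main beta chain of the condyle was another one, Lamb2, with 50.3 FPKM in WT, against 46.3 in Dspp+/- and 35.8 in Dspp-/-. Lamb1 made up 10.01% of the beta chain FPKM in WT, against 8.66% in Dspp+/- and 13.2% in Dspp-/-.

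Lamc1, the gamma chain of most laminins, lies on chromosome 1 from 153094668 to 153208532 and had 20.03 FPKM in WT, against 18.2 in Dspp+/- and 22.6 in Dspp-/-. WT lay between the mutant libraries. The fold was 0.911 (0.868–0.955) in Dspp+/- and 1.13 (1.08–1.18) in Dspp-/-, and Dspp-/- had 1.24 (1.18–1.29) times the level of Dspp+/-. Lamc3 had 3.56 FPKM in WT, against 2.85 in Dspp+/- and 1.80 in Dspp-/-, so the share of Lamc1 in the sum of Lamc1 and Lamc3 was 84.9%, 86.5% and 92.6%. The ratio of Col4a1 to Lamc1, network collagen against laminin, was 3.53 (3.40–3.67) in WT, against 2.61 (2.51–2.71) in Dspp+/- and 2.03 (1.95–2.11) in Dspp-/-.

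**Figure D3:**
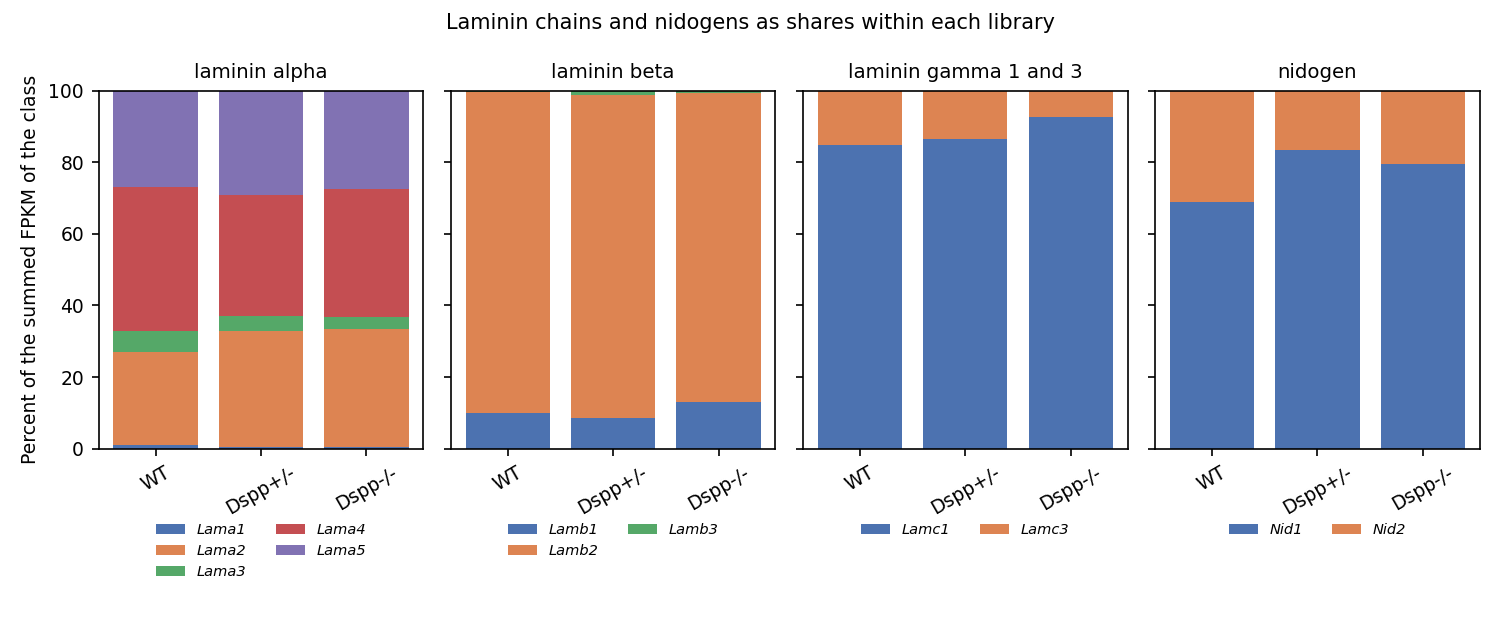
Stacked bars give each chain as a percent of the summed FPKM of its class (laminin alpha chains, laminin beta chains, Lamc1 with Lamc3, and nidogens) in the 1 library of each genotype. Lama2 takes 26.1% of the alpha chains in WT, against 32.5% in Dspp+/- and 33.0% in Dspp-/-, Lamb2 takes 86.2% or more of the beta chains, and Nid2 takes 31.2% of the nidogens in WT and 16.6% and 20.6% in the mutant libraries.

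Nidogen, the product of Nid1, binds the gamma chain of laminin and ties it to type IV collagen. Nid1 (chromosome 13, 13612136 to 13686854) had 14.8 FPKM in WT, against 16.9 in Dspp+/- and 19.6 in Dspp-/-, the highest fold of the 10 genes in Dspp-/-. It was lowest in WT, with folds of 1.14 (1.08–1.21) and 1.33 (1.26–1.40), and an RNA gene on the other strand covers 2.06% of its exon length. Nid2, which encodes the other nidogen, went the other way, with 6.69 FPKM in WT, against 3.36 in Dspp+/- and 5.09 in Dspp-/-. The ratio of Nid1 to Nid2 was 2.21 (2.03–2.41) in WT, against 5.03 (4.53–5.59) in Dspp+/- and 3.86 (3.53–4.22) in Dspp-/-, and no 2 of these intervals overlap.

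For the 4 collagen genes, Hspg2, Lama2 and Lama4 the mutant libraries were closer to each other than to WT. Lamb1, Lamc1 and Nid1 were higher in Dspp-/- than in Dspp+/-, and beyond counting error so were Col4a2, Col15a1, Lama4 and Hspg2. The log2 ratios of FPKM + 1 between Dspp-/- and Dspp+/- had a median of 0.10 over the 10 genes, beside -0.037 over all compared genes. The interval of the fold lay above 1 for 7 genes and below 1 for 1, Col4a1, while 25.5% and 34.6% of all genes with fragments did so. No gene of the 10 was 2-fold apart, where 0.852% of compared genes were at least 2-fold higher and 0.798% at least 2-fold lower, and none was 1.5-fold apart, beside 3.39% and 4.32%. Folds ran from 0.963 (0.933–0.993) for Col4a1 to 1.24 (1.18–1.29) for Lamc1.

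Of 44 further genes of basement membranes, set out as lists of other collagens, other laminin chains, Nid2 and Agrn, associated proteins and receptors, 31 had a mean FPKM of 1 or more. At 2-fold, 0 of these 31 were higher and 1 was lower in Dspp+/-, and 0 were higher or lower in Dspp-/-, beside the shares of 4.88% and 2.86%, and 4.05% and 1.37%, over all genes. By counting error, 18 were lower and 9 higher in Dspp+/-, where 28.4% and 39.4% of all genes were. In Dspp-/-, 20 were lower and 3 higher, beside 33.6% and 34.1%. The 6 other collagens all had a mean under 1 FPKM, and Col7a1, the collagen of skin anchoring fibrils, was highest in WT at 0.288 FPKM. Of the 7 other laminin chains, 3 were compared, with medians of -0.12 in Dspp+/- and -0.48 in Dspp-/-. Nid2 and Agrn had medians of -0.61 and -0.31. Lamb3, a chain of skin laminin, had 0.217, 0.634 and 0.279 FPKM.

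The 1 gene past 2-fold was Sparc, whose product osteonectin binds type IV collagen and is also an abundant protein of bone matrix. Sparc had 4675 FPKM in WT, against 1245 in Dspp+/- and 2401 in Dspp-/-, with log2 ratios of -1.91 and -0.96, and it is counted in the osteoblast list as well. The 13 compared associated proteins had medians of -0.28 in Dspp+/- and -0.31 in Dspp-/-. Of the fibulin genes, Fbln1, next to Sparc in the WT library, had 25.3, 20.7 and 20.1 FPKM, and Fbln2 had 20.1, 27.6 and 19.8 and was highest in Dspp+/-. Pxdn, the peroxidase that crosslinks type IV collagen, had 8.15, 7.31 and 8.04 FPKM, and was picked for that role after its values were seen.

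The 13 receptors were all compared and had medians of -0.09 in Dspp+/- and -0.15 in Dspp-/-. Itgb1, the integrin beta chain shared by most receptors for laminin and collagen, had 174 FPKM in WT, against 137 in Dspp+/- and 157 in Dspp-/-. Dag1, the dystroglycan gene, had 45.4, 47.3 and 44.5 FPKM and was nearly level. Of the integrin alpha chains that bind laminin, Itga6 had 7.65, 12.3 and 12.1 FPKM, above WT in both mutant libraries, while Itga3 had 2.55, 2.33 and 1.73, below WT in both. Itga2, a chain that binds collagen, had 7.34, 3.84 and 6.39 FPKM, below WT in both. Itga1, another such chain, had 4.32, 6.73 and 5.99 FPKM, above WT in both. These chains were picked with their values in view.

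Marker lists of the cells that a condyle sample can hold were summed in each library, and their part in the values above was not tested. The 13 endothelial genes summed to 267 FPKM in WT, against 293 in Dspp+/- and 278 in Dspp-/-, with median log2 ratios of 0.14 and 0.11, and 4 of them were lower than WT in Dspp+/- and 5 in Dspp-/-. Of the 10 genes of mural cells, which surround vessels, 9 were compared, with sums of 823, 999.8 and 768 FPKM and medians of 0.12 and 0.025. Within the mural list 3 of the compared genes were lower than WT in Dspp+/- and 4 in Dspp-/-. Among them Cspg4 and Pdgfrb, named because their values were seen to go the other way, had 17.5, 9.10 and 9.32 FPKM and 41.3, 29.3 and 31.7 FPKM. Rgs5 of the same list had 152, 195 and 201 FPKM, Abcc9 had 24.6, 26.8 and 28.1, and Kcnj8, nearly level, had 9.79, 9.87 and 10.04. Des, the most abundant gene of that list and a muscle gene too, had 517, 663 and 429 FPKM, which is most of each mural sum. Cdh5, the most abundant endothelial gene, had 48.9, 56.2 and 52.8 FPKM. Tie1 and Cldn5, endothelial genes named after their values were seen, were lower in both mutant libraries, with 21.5, 19.2 and 18.5 FPKM and 18.6, 15.1 and 16.2 FPKM.

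The skeletal muscle list of 12 genes summed to 13821 FPKM in WT, against 18648 in Dspp+/- and 14666 in Dspp-/-, with medians of 0.38 and -0.18. The adipocyte list of 10 genes summed to 109, 174 and 235 FPKM, and the 9 compared had medians of -0.23 and 1.06. Genes within these lists went different ways in Dspp+/-, where 9 muscle genes were higher and 3 lower, and 4 adipocyte genes higher and 5 lower. In Dspp-/-, 5 muscle genes were higher and 7 lower, and all 9 compared adipocyte genes were higher. Acta1, the most abundant muscle gene in WT, had 5609, 8162 and 7150 FPKM, and Myh4, a myosin of fast fibers named after its values were seen, had 124, 18.2 and 111. Lpl, the most abundant adipocyte gene in WT, had 49.98, 119.8 and 96.5 FPKM, and Cfd, the next, had 23.5, 8.50 and 62.0. The Schwann list of 10 genes summed to 64.2, 54.6 and 64.6 FPKM, and the 8 compared had medians of -0.09 and 0.07. Its most abundant gene, Pmp22, had 45.3, 35.3 and 43.7 FPKM. The 10 genes of fibroblasts and tendon summed to 1330 FPKM in WT, against 862 in Dspp+/- and 856 in Dspp-/-, with medians of -0.25 and -0.13. Of these genes, 3 were higher and 7 lower in Dspp+/-, and 4 were higher and 6 lower in Dspp-/-. Fmod made up most of each sum, with 1032, 621 and 621 FPKM.

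Skeletal and blood lists were further from WT than the 10 genes were. The osteoblast list of 10 genes summed to 19209 FPKM in WT, against 5239 in Dspp+/- and 10424 in Dspp-/-. The 12 chondrocyte genes summed to 1701, 473 and 759 FPKM, with Matn1 listed at 0 in Dspp+/-, and the 10 osteoclast genes to 2314, 842 and 1360 FPKM. The medians of these lists were -1.60, -2.70 and -1.25 in Dspp+/- and -0.89, -1.11 and -0.58 in Dspp-/-. The 10 erythroid genes summed to 879, 3565 and 3422 FPKM (medians 2.38 and 2.23) and the 10 neutrophil genes to 603, 2707 and 3558 FPKM (medians 1.997 and 2.58). Single neutrophil genes lay between 1.80 and 4.93 in Dspp+/- and between 1.95 and 3.78 in Dspp-/-. The most abundant genes of the last 3 lists in WT were Ctsk (863, 279 and 481 FPKM), Hbb-bs (425, 1794 and 1886) and S100a9 (232, 916 and 1339). By median, Dspp-/- was nearer to WT than Dspp+/- in the bone and cartilage lists. Comp of the chondrocyte list went the other way, with folds of 0.675 in Dspp+/- and 0.491 in Dspp-/-. Col18a1 and the type IV chains had nearly the same fold in both mutant libraries. Col15a1 and Hspg2 were also nearer to WT in Dspp-/-, with folds of 0.694 and 0.737, against 0.562 and 0.687 in Dspp+/-.

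**Figure D4:**
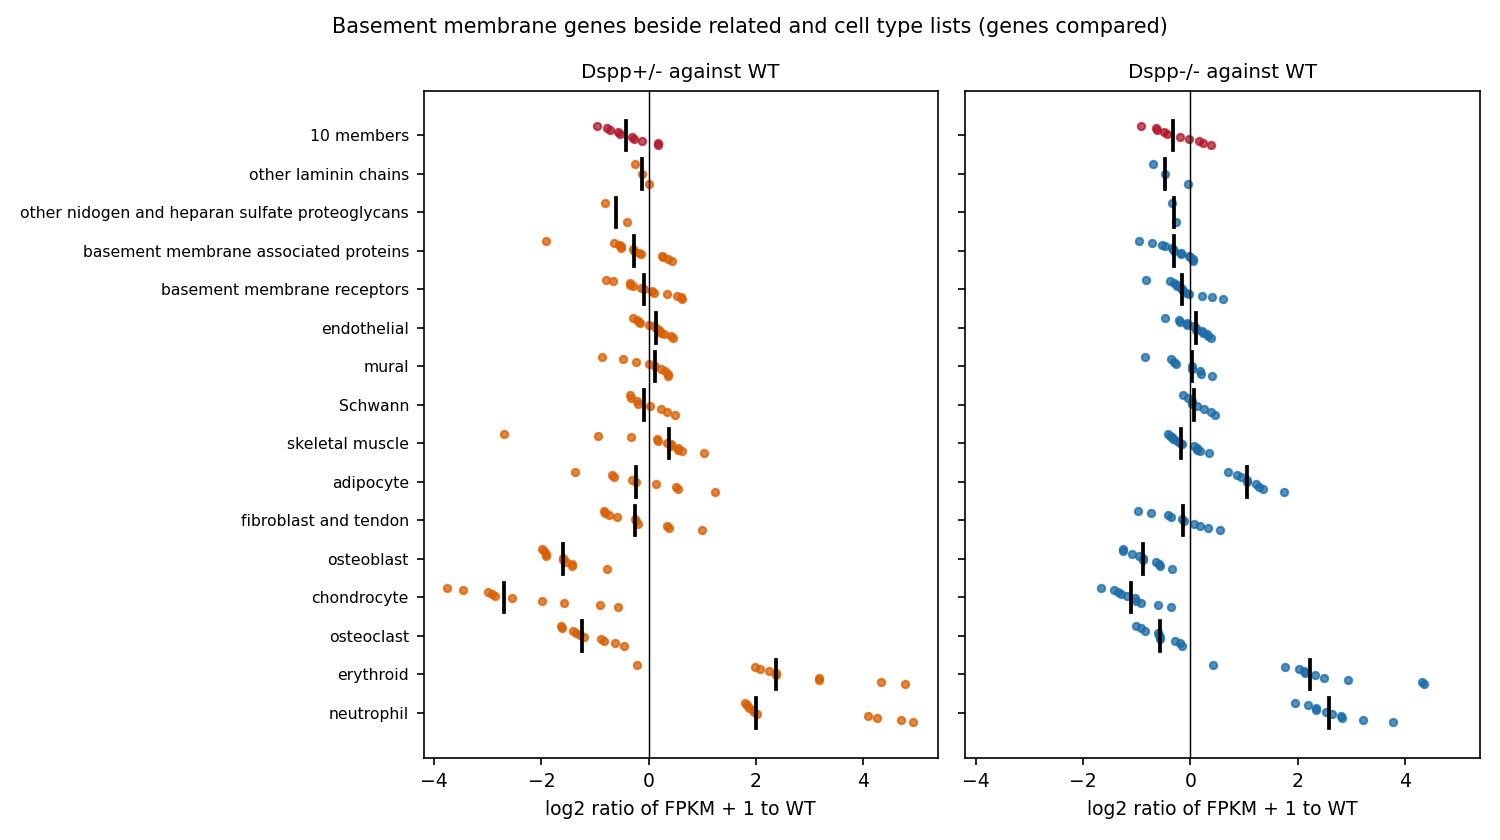
Log2 ratio of FPKM + 1 to WT for each gene whose mean FPKM was at least 1, 1 point per gene, in Dspp+/- (left) and Dspp-/- (right), with a black bar at the median of each list. The 10 genes (top row) have medians of -0.42 and -0.32, the endothelial list 0.14 and 0.11, and the chondrocyte list -2.70 and -1.11.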

How the data were processed

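The authors deposited 1 table with a value per gene for the WT, Dspp+/- and Dspp-/- libraries, made from poly(A) RNA sequenced in pairs of 150 bases. The deposited values, which the authors left without a unit, are taken to be FPKM, that is fragments divided by gene length and library size. The submitters' processing notes list FastQC 0.11.5, HISAT2 2.1.0, StringTie 1.3.3b and DESeq 1.28.0, and the human build hg38, although the genes are of mouse. Gene positions are those of the table, which match GENCODE M21 (GRCm38) at both ends for only 589 genes. The start of Col4a2 is 11362805 in the table and 11312805 in RefSeq on GRCm38.p6. Gene positions and sequence positions therefore cannot be set side by side. The gene annotation and filters are not given in the sources used here.

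Fragments were recovered as whole multiples of 1 constant per library from FPKM times merged exon length in GENCODE M21, with a tolerance of 0.05. They came out whole for 8 of the 10 genes and were rounded for Lama2 and Hspg2. The recovery was tested on simulated data. Genes whose mean FPKM was at least 1 were compared as log2 ratios of FPKM + 1, and 2-fold was the threshold. The study's Kruskal–Wallis test needs replicates, so no p-value is given. All 10 genes were named, with the other laminin and type IV chains (1 laminin chain is not reported here), the genes of the basement membrane lists past 2-fold and the most abundant genes of each list. Other genes were named after their values were seen. Members and lists were chosen with earlier results of these data known. Alternatives were pseudocounts of 0.1 and 5, other filters, a threshold of 1.5-fold and 4 scalings. The scripts ran on Python 3.11.15 with scipy 1.17.1, numpy 2.4.6, matplotlib 3.10.9 and pandas 2.3.3.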

Additional observations from a re-analysis of the deposited data

Results flagged for a closer look

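For 3 genes among the 10 and the 31 compared genes of the related basement membrane lists, the mutant libraries lay on opposite sides of WT, each beyond counting error. With 1 library per genotype, and the WT library shared by both ratios, the difference was not tested. The share of all compared genes with mutant libraries on opposite sides of WT is not given here. The number 3 is therefore not read as a trait of these genes. Lamc1, the laminin gamma chain, had a log2 ratio of FPKM + 1 of -0.13 in Dspp+/- and 0.16 in Dspp-/-, and with scaling that leaves out mitochondrially encoded genes these were -0.018 and 0.27. Tinagl1, a matrix protein that binds laminin, had 0.27 in Dspp+/- and -0.17 in Dspp-/-, from 9.17 FPKM in WT, against 11.2 in Dspp+/- and 8.04 in Dspp-/-. Itga7, the laminin-binding integrin chain of muscle, had 0.60 in Dspp+/- and -0.24 in Dspp-/-, from 8.24, 13.0 and 6.80 FPKM. The skeletal muscle list summed to 13821, 18648 and 14666 FPKM in the same order, and its part in the values of Itga7 was not tested.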

How the results depend on the processing

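No paired analysis was possible because each genotype is 1 library, and for the same reason no library could be left out. The median log2 ratio of the 10 genes kept its sign in all 3 comparisons under every pseudocount and scaling run. In Dspp+/- it moved from -0.42 to -0.35 with a pseudocount of 5, to -0.49 with median-ratio scaling and to -0.31 with scaling without mitochondrially encoded genes, and in Dspp-/- from -0.32 to -0.22 with the last. Of the 30 log2 ratios of single genes over the comparisons, 15 changed by more than their counting error with the last scaling, 8 with a pseudocount of 5, 5 with median-ratio scaling, 2 with a pseudocount of 0.1 and 1 with upper-quartile scaling. Among them Col18a1 was -0.61 and -0.59 in Dspp+/- and Dspp-/- with a pseudocount of 5, and Lama4 -0.21 in Dspp+/-. Without mitochondrially encoded genes Lama4 was -0.11 in Dspp-/-, and Lama2 and Nid1 were 0.28 and 0.29 in Dspp+/-. Lamc1 was -0.20 in Dspp+/- with median-ratio scaling. The number of the 10 genes at least 2-fold lower went from 0 to 1, Col18a1, with a pseudocount of 0.1 in Dspp+/- (1) and in Dspp-/- (1) and with median-ratio scaling in Dspp+/- (1), and to 3 and 3 at 1.5-fold. Over all genes the numbers higher and lower were 636 and 373 in Dspp+/- against WT, 527 and 179 in Dspp-/- against WT, and 111 and 104 in Dspp-/- against Dspp+/-. In that order of comparisons they were 971 and 605, 836 and 363, and 223 and 214 with a pseudocount of 0.1, and 185 and 156, 136 and 45, and 36 and 36 with one of 5. At 1.5-fold they were 1501 and 1166, 1152 and 1070, and 441 and 563. Requiring a mean FPKM of 5, which leaves fewer genes, gave 281 higher in Dspp+/- against WT, 228 higher and 110 lower in Dspp-/- against WT, and 57 higher and 52 lower between the mutant libraries. With no filter, 172 were higher and 170 lower between the mutant libraries. Scaling without mitochondrially encoded genes left 117 lower in Dspp-/- against WT. Precision is limited by the lack of replicates and not by depth for these genes.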

Other observations

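The genes whose pair of log2 ratios to WT lay nearest to the pair of medians of the 10 genes (-0.42 and -0.32) were Itpr3, Tbc1d2b and Id2, at distances of 0.0085, 0.010 and 0.021. Itpr3, a calcium channel gene of the endoplasmic reticulum, had 7.79 FPKM in WT, against 5.53 in Dspp+/- and 6.06 in Dspp-/-. Id2, an inhibitor of helix-loop-helix factors, had 38.8, 29.1 and 31.0 FPKM. Over 3 libraries such a likeness is easily met, as 122 of 7099 genes whose mean FPKM was at least 5 lay within 0.1.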
